A study of Homo sapiens with 8 samples.

Results

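The genes described here are 40 genes of S phase and DNA replication, a fixed list that holds the MCM helicase, the polymerases and their clamp, nucleotide supply, fork protection, replication-coupled repair and the cyclins and E2F factors of S phase entry. Membership was set by gene name, and no measured value enters its rule, though the list was chosen with earlier results of these data known. Of the 40 genes, 39 could be matched to one identifier each among the 57820 genes counted, and the counts of UHRF1 were not analysed here. Of these 39, 25 had enough counts to be tested.

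The cells were J82, an established human urinary bladder cancer line, grown in serum-containing medium with no drug and no genetic change in either group. Living cells were loaded with Hoechst dye and separated by flow cytometry into a side population (SP), which keeps little of the dye, and the non-side population (NSP), which stays stained. Poly(A) RNA of 4 SP and 4 NSP libraries was sequenced, and reads were counted per gene. The labels do not say whether the 4 replicates came from separate cultures or sorts, so the p-values below measure the spread between these libraries, which may be technical. The Hoechst dye binds DNA, so that a cell's dye signal follows its DNA content as well as dye export, and cell cycle phase was not measured in the sorted cells. In such bulk libraries, fewer cells in S phase and less of an mRNA per cell cannot be told apart.

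A cell copies its genome once per cycle. In G1 the ORC complex, CDC6 and CDT1 load the ring of MCM2 to MCM7 on DNA, in S phase CDC45 and the GINS complex switch this ring on as the replicative helicase, and POLA1 with its primase starts each new strand, after which RFC loads the sliding clamp PCNA for the main polymerases. Many of these genes are transcribed in late G1 and S phase under E2F factors, and they are therefore often read as a measure of how many cells of a population are preparing for or passing through S phase.

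Total counts per library were between 1431823 and 1697218 in SP cells and between 1489033 and 2073526 in NSP cells, which is shallow for human mRNA. They were far below the number of raw reads per sample stated in the study's methods, so most reads are not in these counts. The reason was not tested. Keratins KRT8 and KRT18 and the mesenchymal gene VIM were well expressed, at means of 3298, 404 and 315 CPM (reads scaled to the size of the library) in SP cells and of 4022, 435 and 534 CPM in the NSP, while the epithelial adhesion genes EPCAM and CDH1 had 3 and 24 counts over all 8 libraries. KRT19 and CDH2 stood at means of 28.0 and 34.9 CPM in SP and of 34.1 and 35.8 CPM in NSP libraries. VIM was lower in SP cells within every replicate number. Its adjusted p was 0.0784 by the edgeR test described below and 3.39e-06 with the replicate number as a block. Of 5 blood, endothelial and red cell markers matched, PTPRC, CD3E and HBB were at 0, and the 5 genes had 2 counts in total. The efflux pump ABCB1, which exports Hoechst dye, stood at a mean of 30.3 CPM in SP and 4.05 CPM in NSP libraries. ABCG2, the other efflux pump looked at, had 14 counts over all 8 libraries, with overlapping groups, and was not tested.

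The comparison asks whether SP cells differ from NSP cells in the counts of genes of the replication machinery. The strand setting used in counting is not known, and how far these counts follow the mRNAs was not tested. No member passed the main test, which has no replicate block, in either direction. With the replicate number as a block, MCM2 alone passed, as lower in SP cells (described below). The test was edgeR's quasi-likelihood test over 9309 genes, with a call at a Benjamini-Hochberg adjusted p under 0.05 and a fold above 1.3; over all tested genes it called 1.63% higher and 2.03% lower in SP cells. The smallest adjusted p among the 25 members was 0.171, for MCM2 (edgeR's quasi-likelihood test, Benjamini-Hochberg). At an unadjusted p under 0.05 edgeR gave 4 members lower in SP cells, MCM2, MCM7, UNG and DSCC1, and 0 higher, beside 8.27% of all tested genes lower and 8.13% higher. DESeq2 also called 0 members, beside 1.28% higher and 2.05% lower of the genes to which it gave an adjusted p. At an unadjusted p under 0.05 it had 4 of 39 members lower (MCM2, MCM7, UNG and TIPIN) and 0 higher, beside 3.4% lower and 2.72% higher of all genes with a p. That background is 26359 genes, of which 11990 were given an adjusted p, while 33 of the 39 members had one. It therefore takes in many genes with few counts, and these shares set unlike sets side by side.

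The log2 fold changes of the 25 tested members, written throughout as SP minus NSP, ran from -0.73 for DSCC1 to 0.44 for CDC6. Their median was -0.04, against 0.01 over all tested genes, with 14 members below 0 and 11 above. For 22 of the 25 members the 95% interval left out a 2-fold change in either direction, the exceptions being ATAD2, CDC6 and DSCC1. A 1.3-fold change was left out for FEN1 alone, and for the other members the intervals leave a difference of that size possible.

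**Figure D1:**
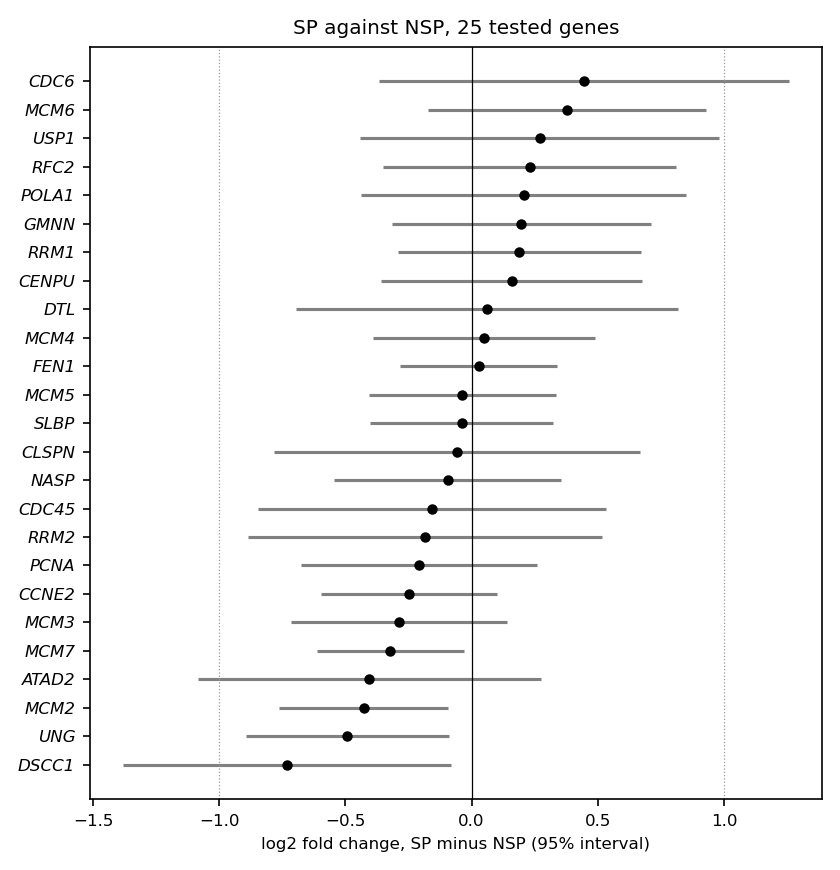
The log2 fold change (SP minus NSP, edgeR) of each of the 25 tested members is a point and its 95% interval a bar, with dotted lines at a 2-fold change. The points lie between -0.73 (DSCC1) and 0.44 (CDC6), and 4 intervals (MCM7, MCM2, UNG and DSCC1) do not reach 0.

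Ranges of CPM gave a similar count. The 4 SP values lay wholly below the 4 NSP values for MCM2, MCM7, UNG and DSCC1, which is 4 of 25 members beside 4.97% of all tested genes, and for 0 members wholly above, beside 4.78%. The same 4 genes, with CCNE2, were lower in SP cells within every replicate number, 5 of 25 members beside 15.1% of all tested genes, while CENPU alone was higher within every number, beside 14.9%. In all other tested members the SP and NSP ranges overlapped.

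**Figure D2:**
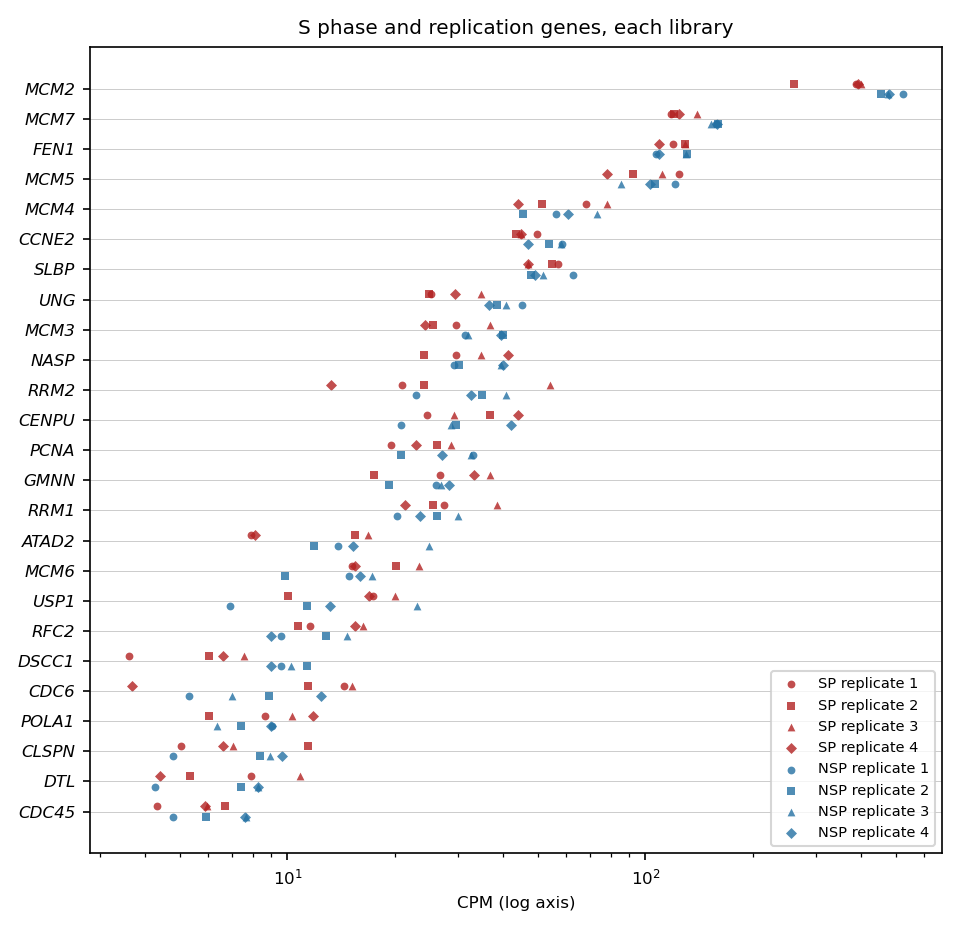
CPM of each tested member (log axis) in the 4 SP libraries (red) and the 4 NSP libraries (blue), with one marker shape per replicate number and the genes ordered by mean level. MCM2 is the highest at 261 to 526 CPM, and the colours are apart for MCM2, MCM7, UNG and DSCC1 and mixed for the others.

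MCM2 (ENSG00000073111.9; hg19 chr3:127317253-127341279, plus strand, 17 exons) encodes a subunit of the hexamer and had the most counts of any member, 5557 in all. Its CPM was 388, 261, 401 and 392 in SP replicates 1 to 4 and 526, 457, 477 and 481 in NSP replicates 1 to 4. Every SP library was below every NSP library, and SP replicate 2 stood well below the other SP libraries. The means were 360 ± 66.7 CPM in SP and 485 ± 29.0 CPM in NSP libraries (SD, n = 4 per group, here and below), a log2 fold change of -0.43 (SE 0.16, 95% interval -0.76 to -0.09), or 1.35-fold lower in SP cells, with an adjusted p of 0.171 by edgeR's quasi-likelihood test.

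Same-numbered SP and NSP libraries deviated together over all genes (correlations 0.203 to 0.380), though over the 25 members alone the correlations were 0.062, 0.060, 0.321 and -0.187 for numbers 1 to 4, and a fit with the replicate number as a block called more genes, 5.89% higher and 7% lower in SP cells. Under this block MCM2 passed the test as the only member, with a log2 fold change of -0.45 (SE 0.13, adjusted p = 0.00943, edgeR). The differences of log2(CPM + 1) within numbers 1 to 4 were -0.44, -0.81, -0.25 and -0.29, all lower in SP cells. The call was not kept on leaving out every replicate number. In the blocked fit a library left without its same-numbered partner gives no comparison of the groups, so leaving out either one drops the pair. The call was lost without number 1 (edgeR adjusted p = 0.0614 without its SP and 0.0585 without its NSP library), although the log2 fold change stayed at -0.45 in both fits. It was also lost without number 2 (edgeR adjusted p = 0.257 and 0.250), where the log2 fold change was -0.33 in both fits. It was kept without number 3 or number 4. Without SP replicate 3, or without NSP replicate 3, the block also called UNG (-0.60 and -0.61) and MCM7 (-0.39 and -0.40) lower.

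MCM7 (ENSG00000166508.13; chr7:99689856-99699563, minus strand), another subunit of the hexamer, was measured at 118, 120, 140 and 124 CPM in SP replicates 1 to 4. In NSP cells it was at 157, 160, 152 and 158 CPM. The groups did not overlap, and the NSP libraries were close to each other. The log2 fold change was -0.32 (SE 0.14, 95% interval -0.61 to -0.03), with adjusted p = 0.247 by edgeR and 0.110 with the replicate block.

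The other 4 subunits did not separate the groups. MCM5 was at 101 ± 20.3 CPM in SP and 104 ± 14.7 CPM in NSP cells, a log2 fold change of -0.04 (95% interval -0.41 to 0.33). MCM4 stood at 60.5 ± 15.4 and 59.0 ± 11.5 CPM (0.05, interval -0.39 to 0.49), with SP libraries at 68.5, 51.6, 78.0 and 44.2 CPM that spread wider than the NSP libraries. MCM3 had 29.0 ± 5.66 and 35.7 ± 4.67 CPM (-0.29, interval -0.71 to 0.14). MCM6 was the one subunit with a sizeable positive value, 18.5 ± 3.92 CPM in SP and 14.5 ± 3.21 CPM in NSP cells (0.38, interval -0.17 to 0.93), although SP replicates 1 and 4, at 15.1 and 15.5 CPM, lay within the NSP range. Adjusted p was between 0.512 and 0.945 for these 4 genes in edgeR's quasi-likelihood test.

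The ring holds each of the 6 subunits in equal number, but the counted levels of their genes were unequal. Exon length was taken over all exons of a later annotation than the one used in counting, and the strand setting is not known. How far these levels follow the mRNA of each subunit was not tested. Per kilobase of exon, the mean level in NSP cells was 103 CPM per kb for MCM2, 31.7 for MCM7, 14.3 for MCM5, 9.79 for MCM3, 5.99 for MCM4 and 3.50 for MCM6, and in SP cells MCM2 was again the highest, at 76.5, and MCM6 the lowest, at 4.47. MCM2 took 55.8% to 57.9% of all reads on the 6 genes in the NSP libraries. In SP replicates 1 to 4 it took 52.2%, 45.7%, 50.8% and 57.8%, so that replicates 1 to 3 were below all NSP libraries and replicate 4 was within them. The summed CPM of the other 5 subunits was 355, 310, 389 and 286 in SP and 381, 362, 360 and 378 in NSP cells, with overlap. An RNA on the opposite strand, the lncRNA ENSG00000285600, is annotated across 1113 bp of MCM2 exons. It has no count of its own here, and the strand setting used in counting is not given in the sources used here, so its reads, if any, cannot be told apart from those of MCM2.

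Since E2F factors drive many of these genes, the 250 bases before the transcription start were searched for 4 E2F-type words, TTTCCCGC, TTTCGCGC, TTTGCCGC and TTTGGCGC, on both strands (RefSeq promoters, GRCh38.p14; a gene with several starts was counted if any start held a word). Of the 32 members with an entry, 16 (50%) held a word, beside 928 of 27305 genes (3.40%). The CCAAT box, which is not part of these words, was present in 25 members (78.1%) beside 37% of genes, and TTTGAA, the core of the CHR element of G2 and M phase promoters, in 3 (9.38%) beside 16.1%. Of the hexamer, MCM4 and MCM5 had no entry and were not searched. The sequences below are those of MCM2, MCM3 and MCM6, with the counted E2F-type words in capitals. MCM2, which had the lowest log2 fold change of the 6 subunits, held no word, and MCM3 held 1. MCM6, which had the highest, held 2 that do not overlap, marked here in the opposite-strand reading GCGCGAAA. At each of these 2 sites the bases just before the capitals, with the first capitals, also spell TTTGGCGC. These overlapping matches were neither counted nor marked. MCM7, with a log2 fold change nearly as low as that of MCM2, also held 2 words at one of its starts. Its stretch is not printed because exons of AP4M1 lie in it. The MCM2 stretch is chr3:127598271-127598410 (plus strand), MCM3 chr6:52284743-52284922 (minus) and MCM6 chr2:135876444-135876623 (minus), each ending at the base before the gene's start. The MCM2 stretch is shorter because its upstream end was set to leave out the first exon of a neighbouring gene. A word is a match of letters and not a measured binding site, and no match says only that these letters are absent.
MCM2: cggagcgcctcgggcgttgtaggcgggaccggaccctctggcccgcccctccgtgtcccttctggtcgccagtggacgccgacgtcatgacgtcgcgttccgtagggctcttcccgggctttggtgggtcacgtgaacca
MCM3: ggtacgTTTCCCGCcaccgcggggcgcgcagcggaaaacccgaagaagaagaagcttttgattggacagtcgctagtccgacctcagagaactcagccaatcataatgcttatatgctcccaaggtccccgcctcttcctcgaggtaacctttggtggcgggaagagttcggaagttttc
MCM6: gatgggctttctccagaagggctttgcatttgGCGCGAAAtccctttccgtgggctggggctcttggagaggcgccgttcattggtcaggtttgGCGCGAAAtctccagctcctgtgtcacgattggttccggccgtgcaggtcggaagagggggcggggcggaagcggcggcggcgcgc

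Among the genes that load and switch on the helicase, none stood out from its spread. CDC6, the loader of MCM rings, had the highest log2 fold change of the 25 tested members, 0.44 (SE 0.38, 95% interval -0.37 to 1.26, adjusted p = 0.624 by edgeR), on few reads. Its CPM was 14.4, 11.4, 15.2 and 3.68 in SP and 5.32, 8.89, 7.02 and 12.4 in NSP replicates 1 to 4. The first 3 SP libraries were high and replicate 4 was the lowest of all 8 libraries, 4.12-fold below the highest SP value. GMNN, the inhibitor of loading that accumulates in S phase, was at 28.5 ± 8.50 and 25.1 ± 4.02 CPM (0.20), and CDC45 at 5.72 ± 1.0 and 6.49 ± 1.39 CPM (-0.16). GINS2, a subunit of the GINS complex, had between 3 and 9 counts per library and was not tested.

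At the fork itself, none of the polymerase and clamp genes passed the test. FEN1, the nuclease that trims Okazaki fragments, was at 122 ± 9.44 CPM in SP and 119 ± 13.0 CPM in NSP cells (log2 fold change 0.03, 95% interval -0.28 to 0.34), with overlapping groups. PCNA was at 19.5, 26.1, 28.7 and 22.8 CPM in SP and 33.0, 20.7, 32.5 and 27.0 CPM in NSP cells, with overlapping groups and a log2 fold change of -0.21 (interval -0.68 to 0.26). POLA1 (0.21) and RFC2 (0.23) had small positive values. Adjusted p of these 4 genes lay between 0.704 and 0.953 in edgeR's quasi-likelihood test, and PRIM1 and POLD3 were too low to be tested.

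Ribonucleotide reductase makes deoxynucleotides, with RRM1 as its large subunit and RRM2 as the small subunit that is made in S phase. RRM2 had 20.9, 24.1, 54.1 and 13.2 CPM in SP replicates 1 to 4 and 22.9, 35.1, 40.8 and 32.5 CPM in the NSP replicates. The SP values spread 4.09-fold, with replicate 3 above and replicates 1 and 4 below every NSP library. The log2 fold change, -0.18 (95% interval -0.89 to 0.52, adjusted p = 0.839, edgeR), was -0.74 without SP replicate 3 and 0.03 without SP replicate 4, neither of them called. RRM1 was at 28.2 ± 7.30 CPM in SP and 25.0 ± 4.13 CPM in NSP cells (0.19, interval -0.29 to 0.67).

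UNG (ENSG00000076248.6; chr12:109535402-109564530, plus strand), the uracil glycosylase that removes misincorporated uracil from new DNA, was the one repair gene with enough reads. Its CPM was 25.2, 24.8, 34.7 and 29.4 in SP and 45.2, 38.5, 40.8 and 36.6 in NSP replicates 1 to 4. All SP libraries were lower, SP replicate 3 coming nearest to the NSP range. The log2 fold change was -0.49 (SE 0.19, 95% interval -0.89 to -0.09), with adjusted p = 0.194 by edgeR and 0.0671 with the replicate block. EXO1, BLM and RAD51AP1, which act in mismatch repair and recombination, had 0 to 11 counts per library.

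DSCC1 (ENSG00000136982.5; chr8:120846216-120868134, minus strand), part of the alternative clamp loader that serves sister chromatid cohesion, had the lowest log2 fold change of the 25 tested members. Its counts were 5, 9, 14 and 9 in SP and 18, 23, 16 and 13 in NSP replicates 1 to 4, or 5.96 ± 1.70 and 10.0 ± 1.01 CPM. As CPM the groups did not overlap, although the raw counts did, since library sizes differ. The log2 fold change of -0.73 had an SE of 0.31 (95% interval -1.38 to -0.08, adjusted p = 0.236 by edgeR and 0.140 with the block).

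The remaining fork and checkpoint genes did not separate the groups. USP1, a deubiquitinase that acts on PCNA, was at 16.1 ± 4.25 and 13.6 ± 6.77 CPM (log2 fold change 0.27, SE 0.34, adjusted p = 0.758 by edgeR). CLSPN, a mediator of the checkpoint kinase CHK1, had 7.53 ± 2.72 and 7.95 ± 2.17 CPM (-0.06), and DTL, which marks CDT1 for destruction in S phase, 7.13 ± 2.88 and 7.06 ± 1.92 CPM (0.06). TIPIN, a fork protection factor, was too low for the test at 0, 1, 2 and 0 counts in SP and 4, 4, 7 and 4 counts in NSP replicates 1 to 4. These TIPIN groups did not overlap, but 579 bp of its exons are shared with a pseudogene of the ribosomal protein gene RPL9, and its counts are uncertain.

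CCNE2, a cyclin of S phase entry, was the tested member of its group, at 45.8 ± 2.70 CPM in SP and 54.3 ± 5.32 CPM in NSP cells (log2 fold change -0.25, SE 0.16, adjusted p = 0.493 by edgeR). It was lower in SP cells within each replicate number, but NSP replicate 4, at 47.0 CPM, was below SP replicate 1, at 49.7 CPM. E2F8, a repressor among the E2F factors, had 0 to 3 counts per library. CASP8AP2, known for a role in histone gene expression, was untested at 5, 2, 6 and 2 counts in SP and 1, 2, 2 and 1 counts in NSP cells, and in CPM its SP libraries were all higher.

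No gene of chromatin assembly and histone supply passed the test, and the groups overlapped in each of those tested. SLBP, which binds the stem-loop of histone mRNAs, had 51.5 ± 5.16 and 52.9 ± 6.79 CPM (-0.04), and NASP, a histone chaperone, 32.4 ± 7.29 and 34.8 ± 5.86 CPM (-0.09). ATAD2, a bromodomain ATPase, had 12.1 ± 4.70 and 16.4 ± 5.79 CPM (-0.40, SE 0.32). CENPU, a centromere protein, had 33.7 ± 8.64 and 30.3 ± 8.86 CPM (0.16), and replicate 4 was its highest library in both groups. CHAF1B, HELLS, CDCA7 and the 2 members without a set role, WDR76 and UBR7, had 0 to 16 counts per library and were not tested.

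One SP library stood above the others for most members. SP replicate 3 was the highest SP library for 17 of the 25 members (68%), against 26.0% of all tested genes, and the lowest for 1. The median deviation of the members from their SP mean was 0.27 in replicate 3 and -0.04, -0.07 and -0.07 in replicates 1, 2 and 4 (log2 of CPM + 1). Genes of G2 and M phase deviated in the same direction in that library, by a median of 0.83, while the median over all tested genes was -0.01. In the NSP libraries the members' medians were -0.15, -0.01, 0.13 and 0.02 for replicates 1 to 4, with NSP replicate 1 the lowest for 11 members (44%, against 27.5% of all tested genes).

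**Figure D3:**
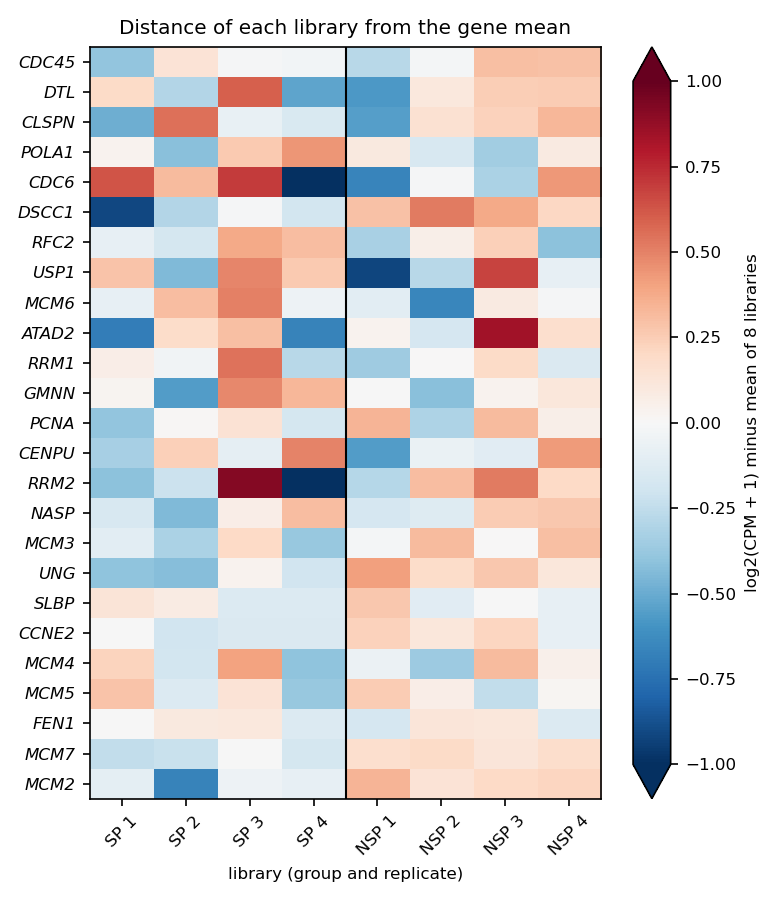
Colours give log2(CPM + 1) of each tested member in each library minus that gene's mean over the 8 libraries, with genes from the lowest level at the top to the highest at the bottom and values past 1 or -1 shown at the end colours. The SP replicate 3 column is mostly red among the genes of middle and low level, and the rows of MCM2, MCM7, UNG and DSCC1 are red in all NSP columns.

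Summed over the 39 genes, SP replicates 1 to 4 had 1257, 1107, 1440 and 1200 CPM and the NSP replicates 1431, 1385, 1483 and 1433 CPM. SP replicate 3 lay within the NSP range and the other 3 SP libraries below it. Without MCM2, which makes up much of this sum, the values were 869, 847, 1039 and 808 CPM in SP and 906, 928, 1006 and 953 CPM in NSP cells, with the same library standing above. Within replicate numbers 1 to 4, 12, 16, 13 and 19 of the 25 members were lower in SP cells, beside 49.3% to 49.7% of all tested genes, and the median differences were 0.01, -0.16, -0.01 and -0.29. What sets SP replicate 3 apart was not tested.

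**Figure D4:**
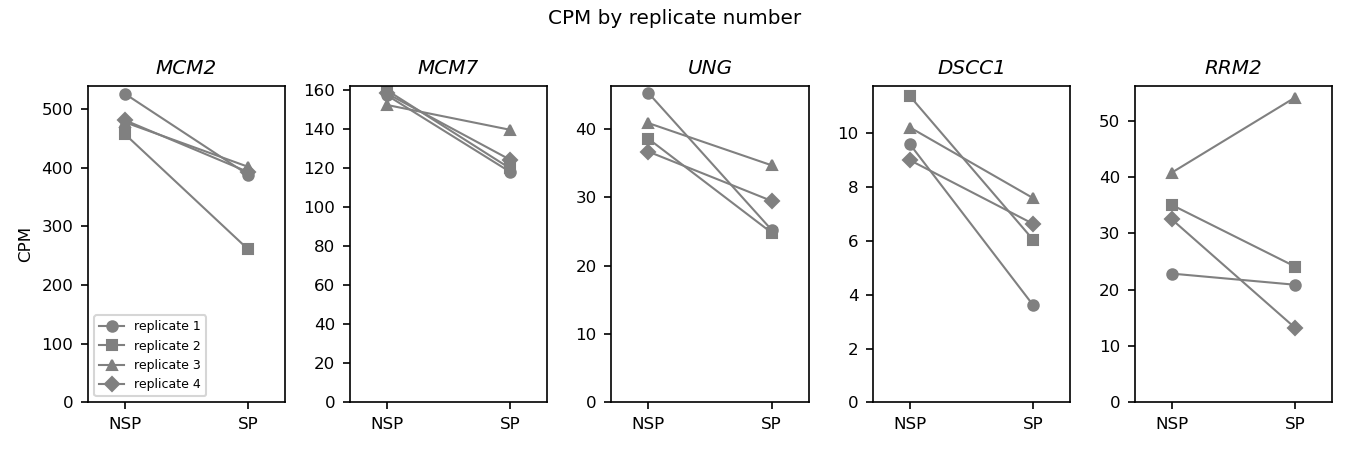
CPM of MCM2, MCM7, UNG, DSCC1 and RRM2 in the NSP and SP library of each replicate number, joined by a line for each number, with axes from 0. All 4 lines go down from NSP to SP for the first 4 genes, and for RRM2 the line of replicate 3 goes up, from 40.8 to 54.1 CPM.

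Other genes of the pathway were read beside the members. Of 59 further replication genes, 41 were tested and 1 was called lower, TYMS, the thymidylate synthase that supplies dTTP, which fell by 0.56 on the log2 scale (adjusted p = 0.0431, edgeR's quasi-likelihood test); this call was lost on leaving out any one library, with adjusted p up to 0.139. The median of the 41 was -0.26, with 28 below 0, and with the replicate block 3 were called lower, TYMS, the polymerase subunit POLD1 (-0.54) and the clamp loader subunit RFC5 (-0.41). Of 19 G1 to S regulators, 12 were tested and 0 were called by edgeR without the block, with a median of -0.11, while the block called 2 lower, the kinase inhibitor CDKN1A and the transcription factor MYBL2. Of 54 G2 and M phase genes, 36 were tested and 2 fell in SP cells, the ubiquitin-conjugating enzyme UBE2C, by 1.23, and the topoisomerase TOP2A, by 1.25 (adjusted p = 0.0187 and 0.0238, edgeR). On leaving out one library at a time, UBE2C kept its call in 6 of 8 fits (adjusted p up to 0.0531) and TOP2A in 4 of 8 (up to 0.0764). The median of this list was -0.37, and 13 were called lower with the block. Over all tested genes, the share called lower was 2.03% without and 7% with the block, and the 3 of 41 further replication genes are close to the latter. In SP replicate 3 the summed CPM of the G2 and M phase list reached 2379, within the NSP range of 1722 to 2385. Whether the lists differ from the S phase members in their change was not tested.

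Several members lie across genes on the opposite strand. The strand setting is not given in the sources used here, so reads in the shared bases may come from either gene. In 595 compared pairs of a lncRNA lying largely across a protein-coding gene of the other strand, the lncRNA was above its partner in 88.2%. Whether the members' counts outside the shared bases also hold reads of the other strand, or mainly such reads, was not tested. This limit applies to every member value given above. Exons of 15 of the 39 members cross an annotated exon of the other strand, 10 of them among the 25 tested, and for 7 the partner was counted and shared at least 50 bp. The partner had more counts per kilobase than the member in 6 of these 7. The partners were AP4M1 for MCM7 (392 bp shared, 8.87 times the counts per kilobase), RRM1-AS1 for RRM1 (63 bp, 68.2 times), HSD17B6 for PRIM1 (132 bp, 3.21 times), PRIMPOL for CENPU (520 bp, 1.90 times), INTS8 for CCNE2 (1629 bp, 1.73 times), ENSG00000232335 for CLSPN (280 bp, 97.9 times) and IMPDH1P6 for ATAD2 (433 bp, 0.451 times).

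PRIMPOL, a primase-polymerase that restarts stalled forks, was the partner with the clearest difference between the groups. Its CPM was 44.7, 38.2, 19.5 and 42.7 in SP and 51.1, 50.4, 62.5 and 78.1 in NSP replicates 1 to 4, so that all SP libraries were below all NSP libraries. The log2 fold change was -0.75 (SE 0.24, adjusted p = 0.110 by edgeR without the block), and it passed the test with the block (-0.76, adjusted p = 8.76e-04). CENPU, which shares its 520 bp, had a log2 fold change of 0.16, the opposite sign. INTS8 was at 105, 190, 200 and 104 CPM in SP and 81.4, 142, 305 and 115 CPM in NSP cells, a spread that CCNE2 did not share. AP4M1 had a log2 fold change of -0.22 (adjusted p = 0.540, edgeR), of the same sign as MCM7. RRM1-AS1 was at -0.25 and ENSG00000232335 at -0.06 (adjusted p = 0.597 and 0.937, edgeR).

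**Figure D5:**
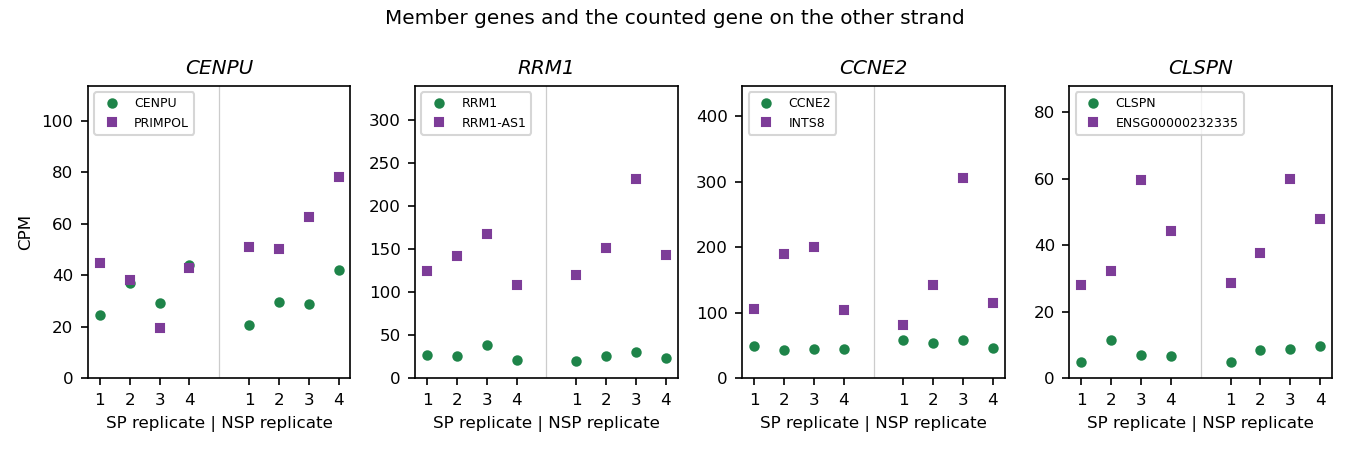
CPM of 4 members (green circles) and of the counted gene on the other strand (purple squares) in SP replicates 1 to 4 on the left of each panel and NSP replicates 1 to 4 on the right, with axes from 0. PRIMPOL is lower in all SP libraries (19.5 to 44.7 CPM) than in the NSP libraries (50.4 to 78.1 CPM) while CENPU overlaps, and RRM1-AS1, INTS8 and ENSG00000232335 lie above their members in every library.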

How the data were processed

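RNA of sorted J82 SP and NSP cells (4 libraries each) was sequenced with single-end reads by the study. Per its methods, the authors mapped the reads to hg19 with STAR and deposited raw counts per gene, made with featureCounts on a GENCODE annotation. How reads shared by several genes were treated and the strand setting are not given in the sources used here. The members and the gene lists were chosen with earlier results of these data known.

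Genes were matched by current symbol to the annotation, which covered 96.1% of the counted identifiers, and genes passing filterByExpr (minimum count 10, minimum total 15) went into edgeR 4.0.16 under R 4.3.3, with TMM scaling, the quasi-likelihood test and Benjamini-Hochberg adjustment over all of them. CPM were taken from the counts with TMM library sizes, and log2 used a pseudocount of 1 CPM. The members described in full were those called in either fit, those with groups that did not overlap, the 3 highest and 3 lowest log2 fold changes among tested members, MCM2 to MCM7, PCNA, RRM1 and RRM2. Deviations of same-numbered SP and NSP libraries from their group means correlated at 0.380, 0.203, 0.322 and 0.321 across all tested genes, each above 0.1. Over the tested members alone these correlations were 0.062, 0.060, 0.321 and -0.187. Because of the values over all tested genes, the replicate numbers were taken to pair the libraries. The main test leaves this pairing out, as the study names no covariate, and the block fit is given beside the result it changes. DESeq2 1.42.0 and limma 3.58.1 served as alternatives, and the fits were tested on simulated data. Shares of counts cover counting error only.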

Additional observations from a re-analysis of the deposited data

Results flagged for a closer look

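MCM2 in SP replicate 2, at 261 CPM, stood apart from the other SP libraries, at 388 to 401 CPM: its gap to the nearest of them was 0.904 of the whole range of the 4 libraries. Over the 25 members, 50 groups of 4 libraries were looked at in this way, of which 1 was this far apart and chance alone gives about 2.5. Without this library the log2 fold change of MCM2 was still negative and was not called with or without the replicate block.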

How the results depend on the processing

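At 1431823 to 2073526 counts per library, tested members had 79 (CDC45) to 5557 (MCM2) counts over all libraries, and FEN1 was the 1 member whose 95% interval left out a 1.3-fold change.

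The replicate block is the one setting that changed a call. The number of members called lower was 0 in the fit without a block and under its 15 other alternatives, 1 (MCM2) with the replicate block, and 0 to 3 when one library at a time was also left out of the blocked fit, an alternative chosen after seeing the data; the number called higher was 0 throughout. The median log2 fold change of the members lay between -0.10 and 0.00 when leaving out one library each.

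Of 417 alternatives of single members, 386 kept the direction and the side of the threshold, 9 passed the threshold under blocked fits (MCM2, MCM7 and UNG) and 22 changed sign, in 9 genes whose log2 fold changes lay between -0.18 and 0.19. With limma voom and sample weights DTL moved to -0.073 and SLBP to 0.020. On leaving out one library each, the range was -0.14 to 0.062 for MCM5, -0.029 to 0.072 for FEN1, -0.24 to 0.21 for DTL, -0.090 to 0.049 for SLBP, -0.10 to 0.17 for MCM4, -0.32 to 0.082 for CLSPN, -0.23 to 0.022 for NASP, -0.0099 to 0.29 for RRM1 and -0.74 to 0.033 for RRM2, and the cause was not tested.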
